A study of Homo sapiens with 12 samples.

Results

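The genes described here are 35 genes of the unfolded protein response and the integrated stress response, given as a list by name. They comprise 15 chaperones and folding enzymes of the endoplasmic reticulum (ER), 3 genes of ER-associated degradation, 4 genes of the stress sensors and the transcription factors they activate, and 13 genes of the ATF4 and CHOP branch. Each gene was read from 1 probe set, the one with the highest mean over the 12 arrays among those listed for a single gene symbol. All 35 were among the 19775 genes named on the arrays, and all 35 passed the filter on low values that left 12824 genes for testing.

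The samples came from the Jurkat line, which derives from a human T-cell leukaemia, transduced with a construct encoding miR-21 or with the matching control vector. From each, RNA was measured as Total RNA, as RNA recovered with an antibody to AGO2 (AGO2 IP), and as RNA recovered with control IgG (IgG IP). AGO2 is the Argonaute protein that carries miRNAs to their target mRNAs, and the IgG IP gives the background of the purification. The 6 groups had 2 replicates each. All cells were Jurkat cells carrying a vector, and no untransduced cells and no drug that provokes ER stress are named in the labels. The values are deposited RMA values on the log2 scale, so a difference of 1 is a doubling. Where a value is given for every array, the control vector array comes first and the miR-21 array second.

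The unfolded protein response is set off when unfolded proteins build up in the ER. It is started by sensors in the ER membrane: IRE1 (the gene ERN1) splices the XBP1 mRNA, ATF6 is cut to release a transcription factor, and PERK (EIF2AK3) phosphorylates the translation factor eIF2. XBP1 and ATF6 raise ER chaperones and degradation factors. Phosphorylated eIF2 lowers translation in general while the mRNA of ATF4 is translated better, and ATF4 with CHOP (DDIT3) raises genes of amino acid supply, redox balance and cell death. Other eIF2 kinases, which sense a lack of amino acids, viral RNA or a lack of haem, feed into the same ATF4 branch, known as the integrated stress response.

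The chaperone branch is known for a shared promoter element, and this was looked for in the RefSeq sequences (GRCh38.p14) from 250 bases before to 50 bases after each start site. The table held 35116 such windows and matched 33 of the 35 members by symbol (48 windows), and PDIA3 and SLC7A11 had no entry. The ER stress element, a CCAAT box and a CCACG box 9 bases apart, on either strand, lay in windows of 7 of the 33 members (CALR, CANX, CRELD2, HSP90B1, HSPA5, PDIA6 and XBP1) and in 0.0769% of all windows. Its second form, ERSE-II, in which ATTGG and CCACG lie 1 base apart, lay in windows of 3 members (HERPUD1, HYOU1 and SDF2L1) and in 0.0541% of all windows. The core of the unfolded protein response element (UPRE), TGACGTGG on either strand, was found for HYOU1 alone (0.729% of all windows), where it overlaps a match of the second form. For the C/EBP-ATF element only the form TGATGNAAT was searched, on either strand. It was found in no member window and in 0.991% of all windows. Forms with another last base were not looked for, so this does not show that members lack the element. A match describes the letters only, and the absence of one says nothing about the factor. The stretches below show matches in HSPA5, the main chaperone, in XBP1, and in 4 further members. Of these 4, CRELD2, SDF2L1 and HYOU1 were called between fractions with all arrays, and HERPUD1 was not. The matched letters are in capitals, with 15 bases on either side.

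HSPA5 (chr9:125241376-125241424, - strand): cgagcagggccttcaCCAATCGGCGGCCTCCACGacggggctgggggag
XBP1 (chr22:28800588-28800636, - strand): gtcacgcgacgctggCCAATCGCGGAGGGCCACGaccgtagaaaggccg
CRELD2 (chr22:49918539-49918587, + strand): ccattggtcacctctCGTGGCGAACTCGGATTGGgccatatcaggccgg
SDF2L1 (chr22:21642099-21642139, + strand): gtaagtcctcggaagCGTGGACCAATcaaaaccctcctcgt
HERPUD1 (chr16:56932010-56932050, + strand): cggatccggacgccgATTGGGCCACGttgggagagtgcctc
HYOU1 (chr11:119057259-119057408, - strand): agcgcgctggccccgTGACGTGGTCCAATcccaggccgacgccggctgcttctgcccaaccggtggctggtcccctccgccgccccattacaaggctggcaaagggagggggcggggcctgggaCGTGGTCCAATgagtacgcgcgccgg

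The CRELD2, SDF2L1 and HYOU1 stretches carry the match on the opposite strand, so that it reads from CGTGG to the CCAAT or ATTGG box. CALR, CANX, HSP90B1 and PDIA6 carry the first form too and are not shown.

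Facts of the arrays bear on every value. The array means were 4.39 to 4.41 in replicate 1 and 5.26 to 5.27 in replicate 2, so levels are compared within a replicate number. The 3′ and 5′ probe sets of ACTB give a measure of RNA integrity. Their difference was 4.0 for the control vector AGO2 IP of replicate 1 and 1.35 to 3.53 on the other arrays. For GAPDH it was 1.95 for that array and 0.14 to 1.60 on the others. In replicate 2 both IP arrays of a construct were nearly alike: the difference between AGO2 IP and IgG IP had an SD over all genes of 0.184 for the control vector and 0.292 for miR-21, against 0.828 and 0.791 in replicate 1. Over the members, the largest AGO2 IP minus IgG IP difference was 0.42 (SLC3A2) and 0.54 (CALR) in replicate 2, and 3.51 and 3.91 (both CHAC1) in replicate 1. This likeness does not show which array of each pair, if any, is unlike what its label says. Whether the IP labels of replicate 2 are right was not tested, so an AGO2 IP or IgG IP value of replicate 2 is that of the array labelled so. Results are also given without 2 of these arrays, the control vector AGO2 IP and the miR-21 IgG IP, a choice made with the IP values known. The labels do not say whether replicates were separate cultures, so p-values measure the spread between these samples, which may be technical. Labelling started from 1 ug of Total RNA and 100 ng of IP RNA, so fraction and labelled amount cannot be told apart. Each sample pooled the RNA of many cells, in which fewer cells of a kind and less RNA per cell cannot be told apart. The 12 T cell markers checked all passed the filter, with a mean of 8.20 to 9.02 over the Total RNA arrays, and of the B cell, monocyte, epithelial and erythroid markers 2 of 5, 1 of 4, 2 of 6 and 2 of 3 did.

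Between AGO2 IP and Total RNA, 5 members rose and 4 fell, and both directions were found among the ER chaperones and in the ATF4 and CHOP branch. DNAJB9, MANF, SDF2L1, CHAC1 and DDIT4 rose, and P4HB, HYOU1, CRELD2 and SLC3A2 fell. These calls come from limma with the replicate number as a block, with Benjamini-Hochberg adjustment over all genes tested and a threshold of 0.05, and every use of rose or fell here refers to such a call. With the block, 9 of 35 members were called (25.7%), beside 16% of all genes (2051 of 12824). By direction, 5 members rose beside 4.71% of all genes, and 4 fell beside 11.3% of all genes. Without the block, limma called none of the members and no gene (0% of 12824), while 7 members and 1230 genes had an unadjusted p under 0.05.

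The calls rest on few arrays. None of the 9 members was called when 1 of 4 arrays was left out: the miR-21 AGO2 IP of either replicate, or either Total RNA array of replicate 2. The count was lower without the miR-21 Total RNA or the control vector AGO2 IP of replicate 1, and higher without the control vector AGO2 IP of replicate 2. The shares of all genes called in these settings are not given here. By the plainer criterion that both AGO2 IP arrays lay on the same side of both Total RNA arrays in each replicate, 5 members were higher (CALR, DNAJB9, SDF2L1, MANF and DDIT4) beside 11.4% of all genes. By the same criterion 8 were lower (P4HB, HYOU1, CRELD2, SEL1L, EDEM1, ATF6, TRIB3 and SLC3A2) beside 21% of all genes.

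**Figure D1:**
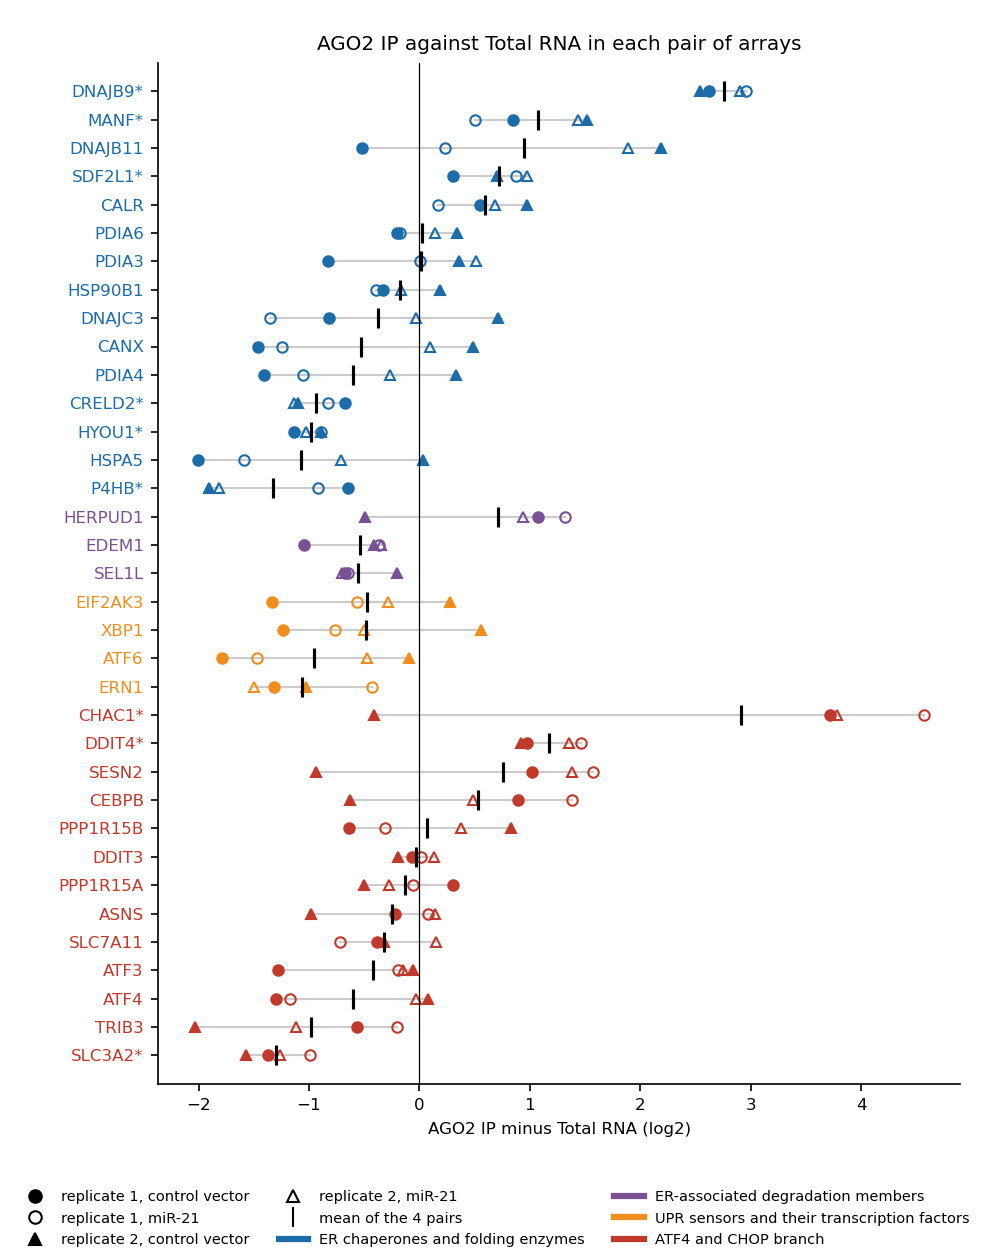
Log2 difference of AGO2 IP minus Total RNA for each of the 35 members (rows, coloured by gene group) in each pair of arrays of the same replicate and construct (symbols), with the mean of the 4 pairs as a vertical mark and an asterisk on the 9 members called with the replicate block. DNAJB9 lies at 2.54 to 2.96 in all 4 pairs, whereas CHAC1 lies at 3.72, 4.57 and 3.79 in the others and at -0.41 in the control vector pair of replicate 2.

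Among the ER chaperones and folding enzymes, DNAJB9 had the largest rise. It encodes ERdj4, a co-chaperone of BiP and a known target of spliced XBP1. DNAJB9 read 6.88 and 7.05 in Total RNA, 6.98 and 7.13 in IgG IP and 9.51 and 10.01 in AGO2 IP in replicate 1, and 7.70 and 8.08, 10.29 and 10.70 and 10.24 and 10.99 in the same fractions of replicate 2. The AGO2 IP arrays stood above the Total RNA arrays in both replicates, while the IgG IP arrays lay at the Total RNA level in replicate 1 and at the AGO2 IP level in replicate 2. The AGO2 IP minus Total RNA difference was 2.76 ± 0.52 (SE, 2 arrays per group; limma adjusted p with the block 0.0162), and it was 2.79 within replicate 1 and 2.72 within replicate 2. Its 2 other probe sets gave 2.52 and 2.17.

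MANF and SDF2L1 rose less. MANF encodes a small protein of the ER lumen that is secreted under stress. MANF read 10.33 and 10.35 in Total RNA, 11.49 and 11.47 in IgG IP and 11.17 and 10.85 in AGO2 IP in replicate 1, and 10.86 and 10.75, 12.41 and 12.23 and 12.38 and 12.19 in the same fractions of replicate 2. Both IPs were above Total RNA in both replicates, and IgG IP was above AGO2 IP in all 4 pairs. The difference between AGO2 IP and Total RNA was 1.08 ± 0.21 (adjusted p 0.0181, limma with the block). SDF2L1 encodes a component of an ER chaperone complex with ERdj3, the product of DNAJB11. SDF2L1 read 8.42 and 7.69 in Total RNA, 9.10 and 9.06 in IgG IP and 8.72 and 8.57 in AGO2 IP in replicate 1, and 8.86 and 8.46, 9.56 and 9.67 and 9.57 and 9.44 in the same fractions of replicate 2. Again both IPs lay above Total RNA in each replicate, by 0.72 ± 0.18 for AGO2 IP (adjusted p 0.0294, limma with the block).

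P4HB, HYOU1 and CRELD2 fell. P4HB encodes protein disulfide isomerase, which forms and reshuffles disulfide bonds. P4HB read 9.41 and 9.45 in Total RNA, 9.51 and 9.33 in IgG IP and 8.76 and 8.53 in AGO2 IP in replicate 1, and 10.34 and 10.25, 8.44 and 8.78 and 8.44 and 8.44 in the same fractions of replicate 2. The AGO2 IP arrays were below Total RNA in both replicates, whereas IgG IP was at the Total RNA level in replicate 1 and near AGO2 IP in replicate 2. P4HB fell by 1.32 on the log2 scale in AGO2 IP (SE 0.33, adjusted p 0.0309, limma with the block), and its 2 other probe sets gave -1.82 and -0.76. HYOU1 encodes a large HSP70 relative that serves as nucleotide exchange factor for BiP. HYOU1 read 8.78 and 8.80 in Total RNA, 8.12 and 8.32 in IgG IP and 7.64 and 7.91 in AGO2 IP in replicate 1, and 8.42 and 8.51, 7.63 and 7.76 and 7.53 and 7.49 in the same fractions of replicate 2. Its order was the same in both replicates, with Total RNA highest, IgG IP between and AGO2 IP lowest. HYOU1 fell by 0.98 (SE 0.17, adjusted p 0.0153, limma with the block), which was -1.01 within replicate 1 and -0.96 within replicate 2.

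CRELD2 encodes an ER-resident protein with disulfide isomerase activity. CRELD2 read 8.20 and 8.36 in Total RNA, 8.50 and 8.24 in IgG IP and 7.52 and 7.53 in AGO2 IP in replicate 1, and 9.38 and 9.37, 8.32 and 8.21 and 8.28 and 8.24 in the same fractions of replicate 2. AGO2 IP was below Total RNA in both replicates, and IgG IP overlapped Total RNA in replicate 1 and AGO2 IP in replicate 2. CRELD2 fell by 0.93 (SE 0.26, adjusted p 0.0433, limma with the block).

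The best known chaperone genes of the response did not pass. HSPA5 encodes BiP, the HSP70 of the ER lumen that also holds the sensors inactive. HSPA5 read 11.06 and 11.12 in Total RNA, 10.43 and 10.53 in IgG IP and 9.06 and 9.54 in AGO2 IP in replicate 1, and 11.54 and 11.60, 11.38 and 11.21 and 11.56 and 10.88 in the same fractions of replicate 2. In replicate 1 both AGO2 IP arrays were below all others, and in replicate 2 the control vector AGO2 IP was level with Total RNA. The difference was -1.07 ± 0.33 (adjusted p 0.0572, limma with the block), with -1.79 within replicate 1 and -0.34 within replicate 2. PDIA4 encodes the disulfide isomerase ERp72. PDIA4 read 8.96 and 9.0 in Total RNA, 9.04 and 9.01 in IgG IP and 7.56 and 7.94 in AGO2 IP in replicate 1, and 9.97 and 9.99, 10.28 and 9.76 and 10.31 and 9.72 in the same fractions of replicate 2. As for HSPA5, the AGO2 IP arrays of replicate 1 were the lowest of their replicate, and the fractions overlapped in replicate 2. PDIA4 differed by -0.60 ± 0.32 (adjusted p 0.234, limma with the block).

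HSP90B1 encodes GRP94, the HSP90 of the ER. HSP90B1 read 8.39 and 8.35 in Total RNA, 8.27 and 8.18 in IgG IP and 8.06 and 7.96 in AGO2 IP in replicate 1, and 9.67 and 9.64, 9.57 and 9.79 and 9.85 and 9.47 in the same fractions of replicate 2. The fractions overlapped in replicate 2 and AGO2 IP was lowest in replicate 1, and the difference was -0.18 ± 0.18 (adjusted p 0.548, limma with the block). CALR encodes calreticulin, a lectin chaperone of glycoproteins. CALR read 10.04 and 10.12 in Total RNA, 10.40 and 10.66 in IgG IP and 10.59 and 10.28 in AGO2 IP in replicate 1, and 10.72 and 10.67, 11.62 and 11.89 and 11.70 and 11.35 in the same fractions of replicate 2. All IP arrays were above the Total RNA arrays of their replicate, and the AGO2 IP difference of 0.60 ± 0.19 missed the threshold (adjusted p 0.0675, limma with the block). Its 2 other probe sets each gave 0.80.

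The other 5 members of this group were CANX, PDIA3, PDIA6, DNAJB11 and DNAJC3, and none passed with the block (differences of -0.53 to 0.95). Some of these went opposite ways in the replicates. DNAJB11, which encodes ERdj3, differed by -0.14 within replicate 1 and by 2.04 within replicate 2, CANX (calnexin) by -1.36 and 0.29, and DNAJC3 (p58IPK, an inhibitor of PERK) by -1.08 and 0.34. A test of the difference between replicates, a fraction by replicate term in limma chosen after the data were seen, called these 3 (replicate 2 minus replicate 1 of 2.18, 1.65 and 1.43; adjusted p 0.0340, 0.0340 and 0.0348). It called 4 members in all, beside 9.99% of all genes, the other being ATF6. Of all 15 members of the group, 7 differences were positive and 8 negative, with a median of -0.18 beside -0.05 for all genes tested. The median was -0.41 within replicate 1 and 0.29 within replicate 2.

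Of the 3 degradation genes, none was called with all arrays. HERPUD1, a membrane protein that organises the ubiquitin ligase complex, differed between AGO2 IP and Total RNA by 1.08 and 1.32 in replicate 1 and by -0.50 and 0.93 in replicate 2 (control vector, then miR-21). SEL1L, the adaptor of that ligase, had 4 negative pairs (-0.67, -0.65, -0.21 and -0.71), and EDEM1, which hands over misfolded glycoproteins, did too (-1.04, -0.37, -0.41 and -0.34). Their mean differences were 0.71, -0.56 and -0.54.

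All 4 sensor and transcription factor genes had negative differences between AGO2 IP and Total RNA, with a median of -0.72, and none passed with the block. The median was -0.98 within replicate 1 and -0.14 within replicate 2. ATF6 is itself a sensor, and its cut form is a transcription factor. ATF6 read 8.15 and 8.15 in Total RNA, 7.10 and 7.51 in IgG IP and 6.37 and 6.68 in AGO2 IP in replicate 1, and 9.24 and 9.40, 9.09 and 8.90 and 9.15 and 8.92 in the same fractions of replicate 2. Its AGO2 IP arrays were below Total RNA in both replicates, by more in replicate 1. The difference was -0.96 ± 0.29 (adjusted p 0.0556, limma with the block), and its 3 other probe sets gave -0.48, -0.68 and -0.14.

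XBP1 encodes the factor made from the mRNA that IRE1 splices. XBP1 read 6.31 and 6.45 in Total RNA, 6.57 and 6.19 in IgG IP and 5.07 and 5.68 in AGO2 IP in replicate 1, and 6.75 and 6.80, 7.37 and 6.51 and 7.31 and 6.30 in the same fractions of replicate 2. The fractions differed in replicate 1, where both AGO2 IP arrays were lowest, and in replicate 2 the control vector IPs stood above and the miR-21 IPs below Total RNA. XBP1 differed by -0.49 ± 0.32 (adjusted p 0.328, limma with the block). Spliced and unspliced XBP1 were not measured apart. ERN1 (IRE1) differed by -1.07 ± 0.32, with an adjusted p at the threshold without passing it (0.05005, limma with the block), and its other probe set above the filter level gave 0.03. EIF2AK3 (PERK) differed by -0.48 ± 0.30.

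In the ATF4 and CHOP branch, CHAC1 and DDIT4 rose and SLC3A2 fell, and the median difference of the 13 members was -0.13. CHAC1, a target of ATF4 and CHOP, encodes an enzyme that breaks down glutathione. CHAC1 read 5.84 and 5.80 in Total RNA, 6.05 and 6.46 in IgG IP and 9.56 and 10.37 in AGO2 IP in replicate 1, and 7.17 and 6.71, 6.94 and 10.45 and 6.76 and 10.50 in the same fractions of replicate 2. In replicate 1 both AGO2 IP arrays stood far above the other 4, and in replicate 2 both miR-21 IPs, AGO2 and IgG, stood above the other 4. The difference between AGO2 IP and Total RNA was 2.92 ± 0.83 (adjusted p 0.0440, limma with the block), 4.15 within replicate 1 and 1.69 within replicate 2. Without the control vector AGO2 IP and the miR-21 IgG IP of replicate 2, arrays chosen with the IP values known, it was 3.82 ± 0.26. That value is a description and no test.

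DDIT4 encodes REDD1, an inhibitor of the growth kinase mTORC1. DDIT4 read 10.52 and 9.91 in Total RNA, 10.82 and 10.43 in IgG IP and 11.49 and 11.37 in AGO2 IP in replicate 1, and 10.83 and 10.93, 11.68 and 12.38 and 11.75 and 12.29 in the same fractions of replicate 2. AGO2 IP was above Total RNA in all 4 pairs, by 1.18 ± 0.28 (adjusted p 0.0264, limma with the block), and IgG IP lay between them in both pairs of replicate 1 and level with AGO2 IP in replicate 2. SLC3A2 encodes CD98, the heavy chain that amino acid transporters, among them the cystine transporter SLC7A11, need at the cell surface. SLC3A2 read 8.88 and 9.0 in Total RNA, 8.55 and 8.74 in IgG IP and 7.51 and 8.01 in AGO2 IP in replicate 1, and 9.08 and 8.75, 7.93 and 7.82 and 7.51 and 7.48 in the same fractions of replicate 2. Total RNA was highest and AGO2 IP lowest in each replicate, with IgG IP between. SLC3A2 fell by 1.30 in AGO2 IP (SE 0.22, adjusted p 0.0148, limma with the block).

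ATF4 itself, the translation-controlled factor at the head of the branch, was not called. ATF4 read 12.05 and 12.17 in Total RNA, 11.43 and 11.74 in IgG IP and 10.75 and 11.0 in AGO2 IP in replicate 1, and 12.87 and 12.69, 13.10 and 12.86 and 12.96 and 12.66 in the same fractions of replicate 2. In replicate 1 the order was Total RNA, IgG IP, AGO2 IP from high to low, and in replicate 2 the fractions overlapped. ATF4 differed by -0.61 ± 0.28 (adjusted p 0.175, limma with the block), with -1.24 within replicate 1 and 0.02 within replicate 2. DDIT3 encodes CHOP, which promotes cell death when stress lasts. DDIT3 read 6.21 and 6.42 in Total RNA, 6.48 and 6.64 in IgG IP and 6.14 and 6.43 in AGO2 IP in replicate 1, and 7.67 and 7.39, 7.57 and 7.49 and 7.48 and 7.52 in the same fractions of replicate 2. AGO2 IP overlapped Total RNA in both replicates, and the difference was -0.03 ± 0.18.

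ATF3 encodes a stress-induced repressor. ATF3 read 6.12 and 6.81 in Total RNA, 6.50 and 6.97 in IgG IP and 4.83 and 6.61 in AGO2 IP in replicate 1, and 8.44 and 8.36, 8.42 and 7.93 and 8.38 and 8.21 in the same fractions of replicate 2. The control vector AGO2 IP of replicate 1, the array with the highest ACTB 3′ to 5′ difference, was the lowest of its replicate, and the replicate 2 arrays lay between 7.93 and 8.44. The difference was -0.42 ± 0.37, and its 2 other probe sets, both of lower level, gave 0.25 and 0.54. TRIB3 encodes a pseudokinase that binds ATF4 and AKT. TRIB3 read 8.02 and 8.04 in Total RNA, 7.69 and 7.71 in IgG IP and 7.45 and 7.83 in AGO2 IP in replicate 1, and 9.63 and 9.46, 7.74 and 8.63 and 7.60 and 8.35 in the same fractions of replicate 2. Both IPs were below Total RNA in each replicate, and the AGO2 IP difference of -0.98 ± 0.29 just missed the threshold (adjusted p 0.0508, limma with the block).

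ASNS encodes asparagine synthetase. ASNS read 7.46 and 7.77 in Total RNA, 7.04 and 7.52 in IgG IP and 7.25 and 7.85 in AGO2 IP in replicate 1, and 9.99 and 9.69, 9.30 and 9.48 and 9.0 and 9.83 in the same fractions of replicate 2. AGO2 IP overlapped Total RNA in both replicates, and the control vector IPs were the lowest arrays of replicate 2. Its difference was -0.25 ± 0.19. PPP1R15A encodes GADD34, the stress-induced subunit that directs a phosphatase to eIF2. PPP1R15A read 4.88 and 4.73 in Total RNA, 5.06 and 5.34 in IgG IP and 5.18 and 4.67 in AGO2 IP in replicate 1, and 5.61 and 5.64, 5.27 and 5.35 and 5.11 and 5.36 in the same fractions of replicate 2. Its AGO2 IP values overlapped Total RNA in replicate 1 and were below it in replicate 2, with a difference of -0.13 ± 0.22.

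The remaining members of the branch, CEBPB, SESN2, SLC7A11 and PPP1R15B, were not called with all arrays (differences of 0.53, 0.76, -0.32 and 0.06). SESN2 encodes sestrin 2, a leucine sensor upstream of mTORC1. Its pairs were 1.02 and 1.58 in replicate 1 and -0.94 and 1.38 in replicate 2, the same pattern of signs as CHAC1, HERPUD1 and CEBPB, each of which was negative in the control vector pair of replicate 2 alone.

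**Figure D2:**
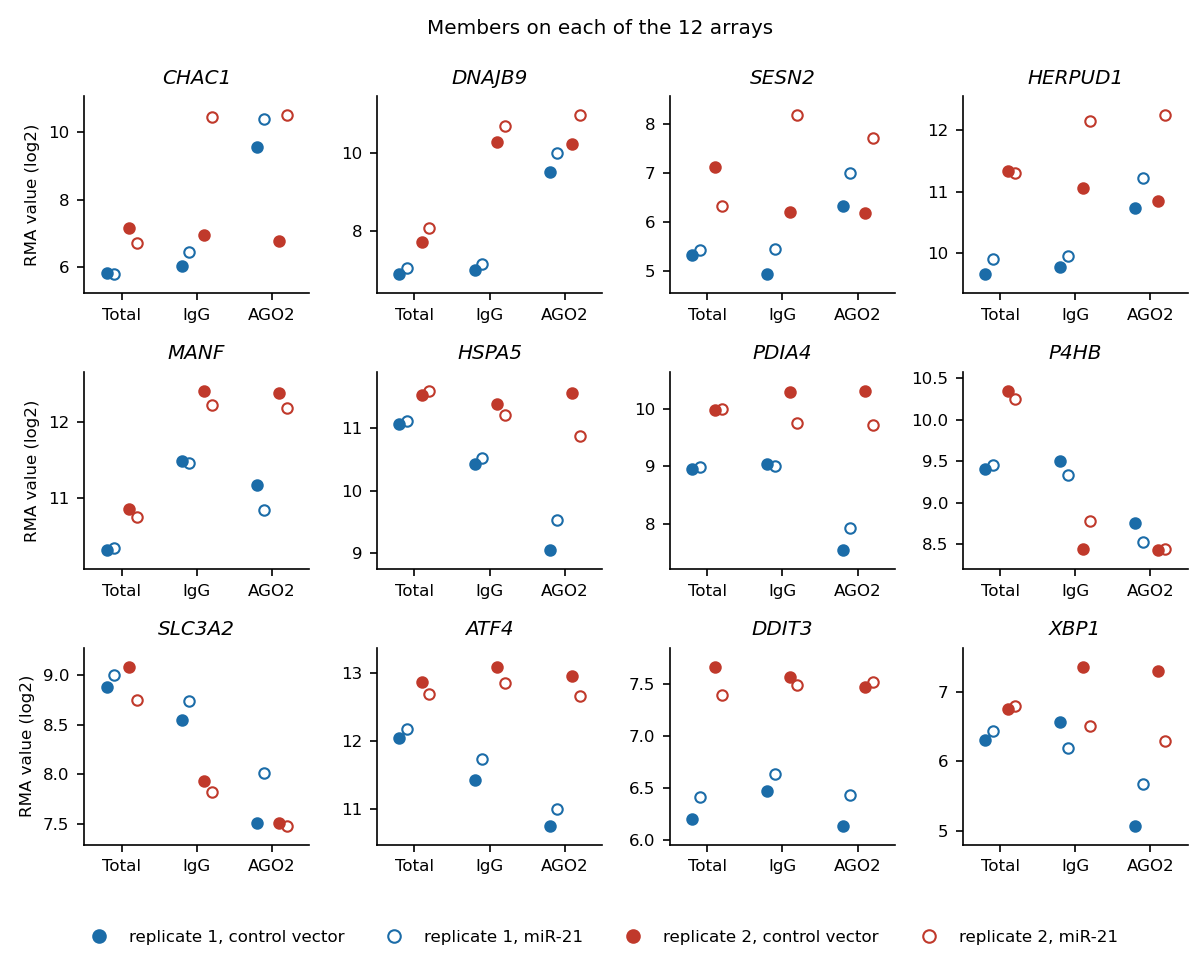
RMA value (log2) of 12 members on each of the 12 arrays, by fraction, with replicate 1 in blue, replicate 2 in red, control vector filled and miR-21 open. CHAC1, SESN2 and HERPUD1 show the miR-21 IgG IP of replicate 2 level with the miR-21 AGO2 IP and the control vector AGO2 IP level with the control vector IgG IP, while HSPA5 and PDIA4 are lowest in the AGO2 IP of replicate 1.

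Within replicate 1 alone, with fraction and construct as terms and 2 residual degrees of freedom, limma called 22 members between AGO2 IP and Total RNA (62.9%, beside 36.3% of all genes), 7 higher (13% of all genes) and 15 lower (23.3% of all genes). Within replicate 2 it called 12 (34.3%, beside 35.2% of all genes), 6 higher (15.8% of all genes) and 6 lower (19.4% of all genes). In the fits within a replicate, here and below, each fraction and construct had 1 array, so the 2 constructs stood in for replicates. Such calls measure the spread between constructs within 1 replicate number and not repeatability between replicates. DNAJB9, MANF and DDIT4 were higher, and P4HB, HYOU1, CRELD2, ERN1 and SLC3A2 lower, in both replicates. Called as higher in replicate 1 alone were CHAC1 (4.15), SESN2 (1.30), HERPUD1 (1.20) and CEBPB (1.14). The members called lower there and not in replicate 2 included HSPA5 (-1.79), ATF6 (-1.63), CANX (-1.36), ATF4 (-1.24) and PDIA4 (-1.23). Of the members named as called in replicate 1 alone, CANX and ATF6 passed the test of the difference between replicates. In replicate 1 the AGO2 IP arrays had ACTB 3′ to 5′ differences of 4.0 and 1.97 beside 1.38 and 1.35 in Total RNA. In replicate 2 they had 2.58 and 2.08 beside 3.53 and 3.18. For GAPDH the same differences were 1.95 and 0.35 beside 0.22 and 0.14 in replicate 1, and 1.05 and 1.02 beside 0.71 and 0.58 in replicate 2. In replicate 2 AGO2 IP was thus below Total RNA by ACTB and above it by GAPDH. The part of RNA quality in these results was not tested.

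Leaving out the control vector AGO2 IP and the miR-21 IgG IP of replicate 2 bears on AGO2 IP against Total RNA. The 2 arrays were chosen with the IP values known, so the values are a description and no test. Without them, the difference was 1.02 ± 0.21 for HERPUD1 and 1.09 ± 0.25 for SESN2. With all arrays these were 0.71 and 0.76. HSPA5 differed by -1.49 ± 0.24, PDIA4 by -0.97, EDEM1 by -0.72 and ATF3 by -0.84. The sensor genes ERN1, EIF2AK3, ATF6 and XBP1 differed by -1.31, -0.85, -1.24 and -0.91. P4HB, SDF2L1 and CRELD2 were no longer called in that setting.

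The comparison of AGO2 IP with IgG IP sets the specific antibody against its background, and with all arrays it called no member. It called 0 of 12824 genes (0%) both without the block and with it, and with the block 2 members, DNAJB9 and SLC3A2, and 663 genes had an unadjusted p under 0.05 in limma (0 members and 29 genes without the block). The largest member differences were CHAC1 (1.82 ± 0.83) and DNAJB9 (1.41 ± 0.52), both with an adjusted p of 0.819. Of the 15 ER chaperones and folding enzymes 14 had a negative difference, with a median of -0.25, which was -0.43 within replicate 1 and -0.03 within replicate 2. PDIA6 and DNAJB11 turned positive under cyclic loess. PDIA3, DNAJB11 and DNAJC3 did so without the control vector AGO2 IP of replicate 1, the array with the highest ACTB 3′ to 5′ difference. Of the 13 branch members 7 were positive, with a median of 0.06, which was -0.06 within each replicate. The median of all genes tested was -0.08. Within each replicate both AGO2 IP arrays lay above both IgG IP arrays for no member (beside 1.23% of all genes), and below them for P4HB, HYOU1 and SLC3A2 (3 members, beside 3.9% of all genes).

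Replicates 1 and 2 gave different pictures of this comparison. Within replicate 1, limma called 15 members (42.9%, beside 24% of all genes). Higher in AGO2 IP than in IgG IP were CHAC1 (3.71), DNAJB9 (2.71), SESN2 (1.48), HERPUD1 (1.12) and DDIT4 (0.81). Lower were HSPA5 (-1.18), PDIA4 (-1.28), CANX (-0.86), P4HB (-0.77), CRELD2 (-0.84), SEL1L (-0.72), ATF6 (-0.78), XBP1 (-1.01), ATF4 (-0.71) and SLC3A2 (-0.88). Within replicate 2 limma called no member and no gene (0%), with no member and 47 genes at an unadjusted p under 0.05. The test of the difference between replicates called 1 member, DNAJB9 (-2.59 ± 0.28, adjusted p 0.0195, limma), beside 1.72% of all genes. CHAC1, at 3.71 and -0.07 within the replicates, was not called there, and its 4 pairs were 3.51, 3.91, -0.18 and 0.05.

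Leaving out the 2 arrays of replicate 2 bears on this comparison by construction, since they were chosen from IPs in which AGO2 and IgG were alike. The values are therefore a description and no test. Without them, AGO2 IP minus IgG IP was 3.52 for CHAC1, 1.33 for SESN2 and 1.05 for HERPUD1, and -1.08 for HSPA5, -1.14 for PDIA4, -1.05 for XBP1 and -1.09 for ATF3. These 7 members (20%, beside 7.42% of all genes) passed the threshold in limma in that setting, against none with all arrays. This setting leaves replicate 2 with the miR-21 AGO2 IP and the control vector IgG IP, so the fraction and the construct are compared across different arrays there.

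IgG IP against Total RNA compares the background purification, labelled from less RNA, with the unpurified RNA. MANF (1.33 ± 0.21, adjusted p 0.0222) and SDF2L1 (0.99 ± 0.18, adjusted p 0.0298) rose in limma with the block, 2 of 35 members (5.71%) beside 1.92% of all genes. Of all genes 0.296% rose and 1.62% fell, and no member fell. Without the block 0 genes (0%) were called, and 2 members and 437 genes had an unadjusted p under 0.05. Both calls were lost without the 2 arrays of replicate 2 (beside 0.398% of all genes called), without either IgG IP array of replicate 1 or 2, and without either Total RNA array of replicate 2. SDF2L1 alone was lost without either Total RNA array of replicate 1 or either miR-21 AGO2 IP array. Both genes were also among those that rose in AGO2 IP, a comparison that shares the Total RNA arrays, with 1.08 for MANF and 0.72 for SDF2L1.

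Within replicate 1, MANF (1.14) and SLC7A11 (-1.28) were called between IgG IP and Total RNA (beside 0.772% of all genes higher and 2.99% lower, 3.77% in all). Within replicate 2, 12 members were called (34.3%, beside 31.3% of all genes). DNAJB9 (2.61), DNAJB11 (1.95), MANF (1.51), DDIT4 (1.15), CALR (1.06) and SDF2L1 (0.96) were higher, beside 14.7% of all genes. P4HB (-1.69), TRIB3 (-1.36), ERN1 (-1.25), CRELD2 (-1.11), SLC3A2 (-1.04) and HYOU1 (-0.77) were lower, beside 16.6% of all genes. In AGO2 IP of that replicate, against the same Total RNA arrays, the differences of DNAJB9, DNAJB11 and P4HB were 2.72, 2.04 and -1.86. The difference between replicates was called for P4HB (-1.68), DNAJB11 (1.87), DNAJB9 (2.52) and CRELD2 (-1.21), 4 members beside 9.93% of all genes.

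The chaperone group and the ATF4 and CHOP branch were compared by their medians. Between AGO2 IP and Total RNA, the branch median minus the chaperone median was 0.43 and 0.33 in replicate 1 and -0.77 and 0.04 in replicate 2 (control vector, then miR-21; SD 0.54, n = 4 pairs), and the difference of the 2 medians over the group means was 0.04. Between AGO2 IP and IgG IP it was 0.60, 0.64, -0.14 and 0.13 in the same order (SD 0.38), and 0.31 over the group means. Between IgG IP and Total RNA it was -0.38, 0.14, -0.71 and -0.05 (SD 0.37), and -0.02 over the group means. The branch exceeded the chaperones in both pairs of replicate 1 for both comparisons of AGO2 IP, and the sign of the control vector pair turned in replicate 2. In each comparison the value over the group means was smaller than the spread of its 4 pairs, and no p is given, because the members were chosen with results known.

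**Figure D3:**
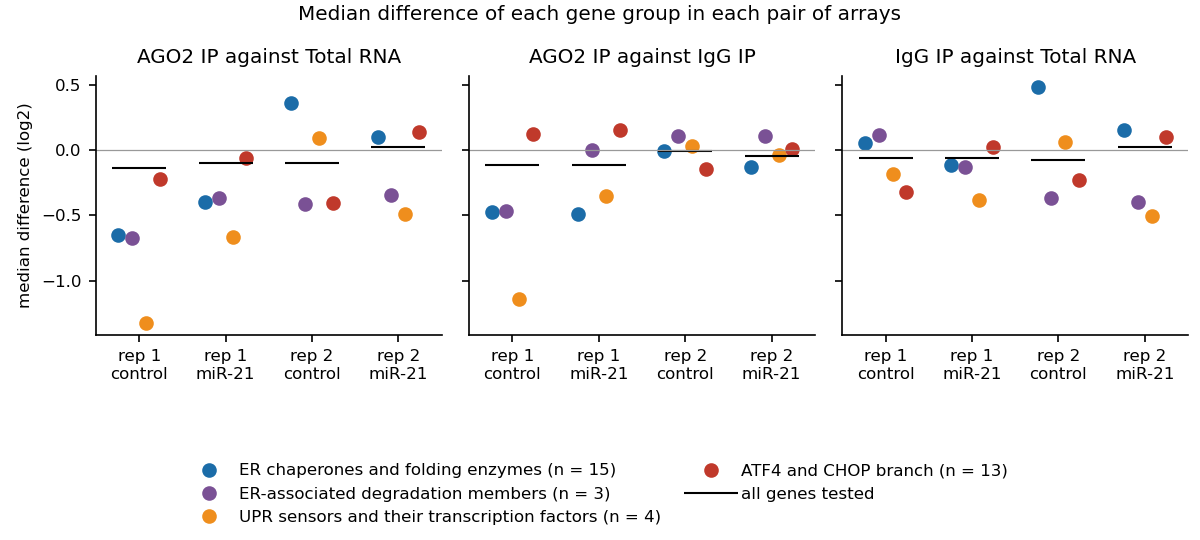
Median log2 difference of each gene group (coloured points) and of all genes tested (black bars) in the 4 pairs of arrays, with a panel each for AGO2 IP minus Total RNA, AGO2 IP minus IgG IP, and IgG IP minus Total RNA. In the first panel the chaperone median moves from -0.65 and -0.40 in replicate 1 to 0.36 and 0.10 in replicate 2, and the sensor median is lowest, at -1.32, in the control vector pair of replicate 1.

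Members with an ER stress element of either form in the promoter window did not share a direction between AGO2 IP and Total RNA. Of these 10 members SDF2L1 rose and CRELD2 and HYOU1 fell, and their median difference was -0.33. Of the other 25, 4 rose and 2 fell, with a median of -0.32. Of all genes, 4.71% rose and 11.3% fell. CRELD2 and CALR both carry the first form on the opposite strand and differed by -0.93 and 0.60, and HSPA5, with it on the forward strand, by -1.07.

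The miR-21 construct was compared with the control vector in each fraction, the comparison meant to find mRNAs that respond to the miRNA. The mature miR-21-5p that it encodes (chr17:59841273-59841294, + strand, GRCh38.p14, RefSeq) is shown with its seed, bases 2 to 8, in capitals.
hsa-miR-21-5p: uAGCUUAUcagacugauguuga
The miRNA itself was not measured here, and the probe sets listed for MIR21, which also list VMP1, were not used. No member and no gene was called for the construct in any fraction, in their mean or in the 2 interactions with fraction, with or without the block (0%). With the block, ASNS in AGO2 IP (0.72 ± 0.27) was the 1 member, and 353 genes were among all, with an unadjusted p under 0.05 in limma there. In Total RNA no member and 3 genes reached that, and in IgG IP no member and 123 genes. In the mean of the fractions no member and 306 genes did, and in the interactions no member and 39 genes (against IgG IP) or 60 genes (against Total RNA). Without the block no member reached an unadjusted p under 0.05 in any of these 6 contrasts.

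In Total RNA no member differed by more than 1 between constructs. The widest were SDF2L1 (-0.72 in replicate 1 and -0.40 in replicate 2), SESN2 (0.11 and -0.79) and ATF3 (0.69 and -0.08). SDF2L1 thus was lower with miR-21 in both replicates, whereas SESN2 and ATF3 changed sign. The median over the 35 members was 0.06 in replicate 1 and -0.01 in replicate 2.

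In the IPs single members differed widely, though none by more than 1 in both replicates. In AGO2 IP of replicate 2, CHAC1 was 3.74 higher with miR-21, SESN2 1.53 and HERPUD1 1.40 higher, and XBP1 differed by -1.01, beside 7.12% of all genes over 1 and 1.55% under -1. In IgG IP of replicate 2 the same comparison gave 3.51 for CHAC1, 1.97 for SESN2 and 1.08 for HERPUD1, beside 8.54% of all genes over 1. Each of these differences uses 1 of the 2 arrays left out above. In replicate 1 the values of CHAC1, SESN2 and HERPUD1 were 0.81, 0.67 and 0.49 in AGO2 IP and 0.41, 0.51 and 0.18 in IgG IP. They were thus positive in both replicates of both IPs, and over both replicates CHAC1 differed by 2.27 ± 1.17 and SESN2 by 1.10 ± 0.57 in AGO2 IP, neither called.

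In AGO2 IP of replicate 1, ATF3 (1.78), ERN1 (1.42) and EIF2AK3 (1.03) were more than 1 higher with miR-21, beside 5.28% of all genes. In replicate 2 the same members differed by -0.17, -0.36 and -0.41. The control vector array of that first pair had the ACTB 3′ to 5′ difference of 4.0, and the miR-21 array one of 1.97. The part of this in the result was not tested. In IgG IP of replicate 1 no member passed 1 in either direction. In the mean of the 2 replicates, 11 of 13 branch members were positive in AGO2 IP and 11 of 13 in IgG IP, with medians of 0.24 and 0.16. Of the chaperones 5 and 6 of 15 were, with medians of -0.10 and -0.05. The IPs are not independent here, since both IP arrays of a construct were nearly alike in replicate 2. In Total RNA 4 of 13 branch members and 9 of 15 chaperones were positive. Over all genes the medians in AGO2 IP, IgG IP and Total RNA were 0.07, 0.04 and 0.02.

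**Figure D4:**
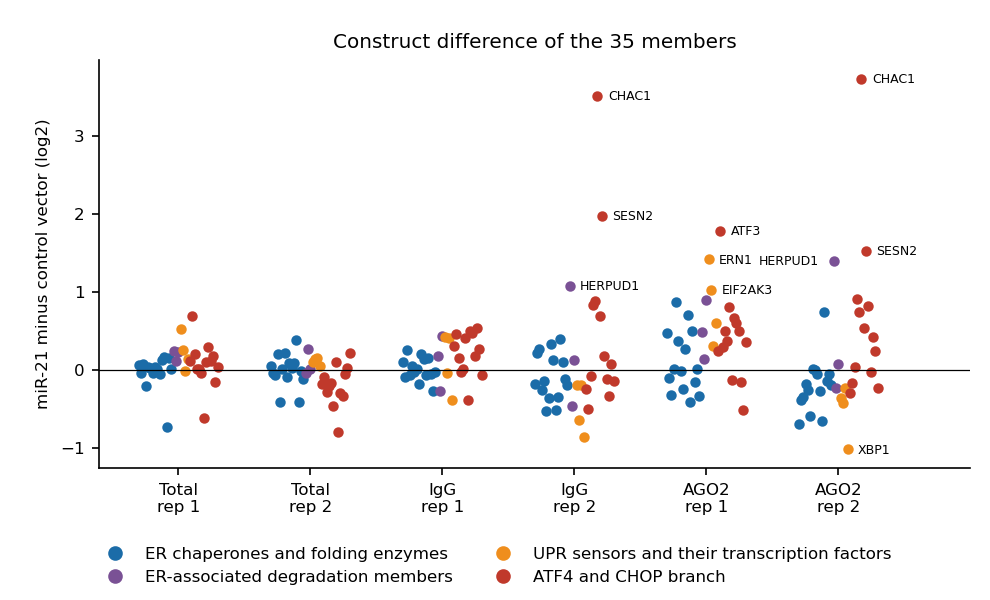
Log2 difference of miR-21 minus control vector for each of the 35 members (points, coloured by gene group) in each fraction and replicate, with members beyond 1 in either direction named. The Total RNA points lie between -0.79 and 0.69, while CHAC1 reaches 3.51 in IgG IP and 3.74 in AGO2 IP of replicate 2.

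Other probe sets of the members offer a check on the choice of 1 per gene. There were 40, of which 32 were at or above the filter level, and 21 of these 32 had the sign of the chosen probe set between AGO2 IP and Total RNA. DNAJB9, P4HB, CALR and ATF6 kept their sign in all of theirs. ATF3, HERPUD1, CANX, HSP90B1, PDIA3, PDIA6, SEL1L and ERN1 did not keep theirs in all probe sets at or above the filter level. The other probe set of HERPUD1 gave -0.11 beside 0.71. For SESN2 the other probe set, of a like level, gave 0.03 beside 0.76. For HSPA5 and PDIA4 the sign was kept, with smaller differences of -0.28 and -0.13. CHAC1, MANF, SDF2L1, DDIT4, SLC3A2, HYOU1 and CRELD2 had no other probe set with a single symbol.

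Other genes of the 2 pathways also went both ways. Of 30 further ER folding and quality control genes tested, 3 rose between AGO2 IP and Total RNA with the block and 3 fell. Their median was -0.09, and of all genes 4.71% rose and 11.3% fell in that comparison. FKBP2, an ER prolyl isomerase (1.77), ERO1B, an oxidase that recharges disulfide isomerases (1.42), and ERP29 (1.05) rose. UGGT1, the glycoprotein folding sensor (-1.69), MBTPS1, the protease that cuts ATF6 (-0.86), and SEC61A1, the channel of the translocon (-0.73), fell. Of 28 further integrated stress response genes tested, 2 rose and 3 fell, beside the same shares of all genes, with a median of 0.16. BCL2L11, which encodes the cell death protein BIM (1.39), and JDP2 (1.12) rose, and SHMT2, a mitochondrial enzyme of serine metabolism (-1.07), SLC7A1, an arginine transporter (-0.96), and EIF2AK4, the amino acid sensing eIF2 kinase GCN2 (-0.78), fell. In IgG IP against Total RNA, FKBP2 alone of both lists rose (1.39), beside 0.296% of all genes. None was called between AGO2 IP and IgG IP, where all genes gave 0 calls too. In the comparison of AGO2 IP with Total RNA, 3 of the 12 T cell markers, CD3E (-0.74), PTPRC (-0.74) and CD5 (-0.73), fell, beside 11.3% of all genes.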

How the data were processed

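The arrays were Affymetrix arrays of biotin-labelled cRNA. The deposited values are log2 RMA values (background correction, normalization and probe set summary by the authors, per the submitters' processing notes). For RMA settings, and for whether all 12 arrays were normalized together, nothing is given in the sources used here.

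Of 54675 probe sets, 41091 were listed with 1 gene symbol, 1801 with several and 11777 (controls included) were not listed. Those with 1 symbol gave 19775 genes, and 12824 of these had a mean of 4.02 or more and were tested, 4.02 being the median of the probe sets other than 62 controls. A limma model (R 4.3.3, limma 3.58.1) with 6 group means was fitted to all genes. It was fitted once with no replicate term (6 residual degrees of freedom) and once with the replicate number as a block (5). The fits were first tried on simulated data with independent noise and 1 replicate shift per gene. Those data held no fraction difference that changed with the replicate, so they do not test the model for these arrays. Called means an adjusted p (Benjamini-Hochberg, all genes tested) under 0.05. The labels number the replicates, and arrays of the same number deviated together from their groups, with correlations of 0.468 to 0.873 (median 0.601) over 15 pairs of groups, so the numbers were taken to pair the arrays. For arrays, their number limits the precision.

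The members, the lists and the 2 arrays left out were chosen with earlier results of these data known. Values on every array are given for members called with the block and for 13 members always named, and further pathway genes for up to 4 rises and 4 falls called. Some listed genes are not analysed here. The alternatives were no filter, median centring, cyclic loess, the mean of all probe sets, each replicate alone, each array left out, and 2 arrays left out. Figures used matplotlib 3.10.9.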

Additional observations from a re-analysis of the deposited data

How the results depend on the processing

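For AGO2 IP against Total RNA, the count of members called was 0 without the replicate block and 9 with it, 22 within replicate 1, 12 within replicate 2, 16 without the control vector AGO2 IP and the miR-21 IgG IP of replicate 2, and 0 to 19 when each array was left out. For AGO2 IP against IgG IP it was 0 with and without the block, 15 within replicate 1 and 7 without the 2 arrays, which were chosen from IPs that were alike. For IgG IP against Total RNA it was 0 without the block and 2 with it, 2 within replicate 1, 12 within replicate 2, 0 without the 2 arrays, and 0 to 2 when each array was left out. The cause of these changes was not tested. With the block, no filter, median centring, cyclic loess and the mean of all probe sets were tried too. They gave 7 to 10 member calls for AGO2 IP against Total RNA and 2 for IgG IP against Total RNA. The shares of all genes in these settings are not given here, so these counts are no result about the members. Calls for the construct stayed at 0. With the block, no member called with all arrays turned its direction in that comparison. Of members not called, cyclic loess turned DDIT3 between AGO2 IP and Total RNA, PDIA6, DNAJB11 and EDEM1 between AGO2 IP and IgG IP, and PPP1R15B between IgG IP and Total RNA (the last under median centring too). The mean of all probe sets turned PDIA6 and ATF3, then ERN1, then HSP90B1, CANX, XBP1 and SESN2 in these 3 comparisons. Leaving out 1 array turned up to 7. Within replicates 1 and 2, the chaperone median was -0.41 and 0.29 for AGO2 IP against Total RNA, and -0.43 and -0.03 for AGO2 IP against IgG IP. The branch median was -0.07 in each replicate for the first comparison and -0.06 in each for the second.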
